A study of Mus musculus with 15 samples.

Results

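The effect of 2 morphogens on the miRNAs of differentiating mouse cells was compared between 2 days. The quantity described is a difference of differences: treated minus control cells at day 14, minus treated minus control cells at day 9. It was taken from the 12 arrays of the 4 groups it needs, out of 15 arrays in the study, with 3 arrays in each group. The array holds 1122 mouse miRNAs. The test covered the 306 that had a group with all its arrays above background, counting the day 5 arrays of the study as a group too. Some of the 306, such as miR-302b-3p and miR-18b-3p, were therefore below background on all 12 arrays.

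The cells were epiblast stem cells (EpiSC), pluripotent cells of the early embryo, from mice that carry Pitx3-GFP, a reporter of a gene of midbrain dopaminergic neurons. All groups carried the reporter. From day 5 the treated cells (labelled DA) received SHH and FGF8, which pattern the ventral midbrain, and the controls (labelled EpiSC at these days too) grew without either. Small RNA of cells harvested at day 9 and day 14 was hybridised to single-colour arrays. The labels mention no sorting on the reporter, and in such bulk samples fewer cells of a type and less RNA per cell cannot be told apart. The labels do not say whether replicates came from separate cultures, and the p-values then measure only the spread between these samples.

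MicroRNAs are short RNAs that lower the output of messenger RNAs, which they find mainly by pairing through bases 2 to 8, the seed. miRNAs that share a seed share many targets, and those cut from neighbouring hairpins are often made from a common transcript. In the nervous system miR-124, miR-9 and let-7 accumulate as precursors leave the cell cycle and become neurons, while miR-132 and miR-212 are made in response to neuronal activity.

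The mature sequences of the miRNAs on which the results turn are from RefSeq (GRCm38.p6), which held 48 of the 60 miRNAs named by rule. They are written 5′ to 3′ with the seed in capitals. The first pair shows neighbours with a common seed that both moved downwards, and miR-129-2-3p is the other large reversal:
miR-132-3p: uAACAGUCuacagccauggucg
miR-212-3p: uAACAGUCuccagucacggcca
miR-129-2-3p: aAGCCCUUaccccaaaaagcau

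The next 2 sets are families in which members with a common seed moved in the same direction, the miR-29 family downwards and let-7 upwards:
miR-29a-3p: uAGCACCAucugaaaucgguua
miR-29b-3p: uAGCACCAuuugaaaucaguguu
miR-29c-3p: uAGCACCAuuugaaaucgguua
let-7a-5p: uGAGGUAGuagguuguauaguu
let-7c-5p: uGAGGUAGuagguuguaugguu
let-7e-5p: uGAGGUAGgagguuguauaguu
let-7i-5p: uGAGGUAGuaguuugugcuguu

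The last set holds a pair with a common seed that moved in opposite directions (miR-92b-3p and miR-363-3p). It also holds miRNAs with large gains of effect and miR-322-5p, which has the seed of miR-15 and miR-16:
miR-92b-3p: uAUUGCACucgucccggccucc
miR-363-3p: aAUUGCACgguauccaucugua
miR-370-3p: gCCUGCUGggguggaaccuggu
miR-494-3p: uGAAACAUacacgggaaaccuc
miR-5622-3p: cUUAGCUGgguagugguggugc
miR-322-5p: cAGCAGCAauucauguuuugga

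On the 12 arrays the signals were scaled by a 75th percentile of 215 to 315 intensity units, 244 to 333 miRNAs were above background, and 0 spots were saturated. Within groups the replicates correlated at 0.989 to 0.998 (Pearson, across the 306 miRNAs, which are not independent replicates). miR-124-3p, the defining miRNA of neurons, was above background on all 12 arrays. Of the pluripotency clusters miR-302d-3p was also above background on all 12, near the dim end of the scale, and miR-294-3p on 1 array each of 3 groups. All 11 miRNAs of endothelium and blood, all 12 of striated muscle and all 10 of epithelium were below background on all 12 arrays. The arrays lay on 2 slides. Slide 1 held treated day 9 and treated day 14 replicates 1 and 2, and slide 2 held treated day 14 replicate 3 and all 6 control arrays. Treatment effects at a single day are therefore almost entirely differences between slides. The difference of differences can be taken within slides: with slide as a block it equals the treated change on slide 1 minus the control change on slide 2, which is also the fit without treated day 14 replicate 3.

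The effect of SHH and FGF8 differed between the days for 100 of the 306 miRNAs (32.7%). It moved upwards from day 9 to day 14 for 51 (16.7%) and downwards for 49 (16.0%). In limma's two-sided test 127 passed without adjustment, and 19 of the called differences were over 2-fold, 7 upwards and 12 downwards. The median difference over all tested miRNAs was -0.07 on the log2 scale, and the 306 effects at day 9 and day 14 correlated at 0.613 (Pearson, across miRNAs, no arrays shared). Both sets of effects compare mainly slide 1 with slide 2, so they are not independent. Called miRNAs have an adjusted p below 0.05. The last 3 inside were miR-762 (0.0429), miR-5117-3p (0.0434) and miR-20a-3p (0.0454), and the next 3 outside were miR-135a-5p (0.052), miR-100-5p (0.0532) and miR-709 (0.0532).

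With slide as a block 95 were called, 52 upwards and 43 downwards, and 91 of them were shared with the 100. The split of directions depended on scaling: with the 75th percentile taken over all mouse probes, 56 moved upwards and 25 downwards, and the median of all miRNAs was 0.13 in place of -0.07. Of the 100, 76 were above background on at least 1 array of each group, 44 of those that moved upwards and 32 of those that moved downwards. Of the 52 called miRNAs named by rule, 24 lost their call with normexp background correction (37 called in all), among them miR-29a-3p, miR-29c-3p, miR-338-3p, miR-92b-3p and miR-7a-5p. With no filter on low signal 67 were called and 12 named calls were lost, among them miR-212-3p, miR-5100, miR-3968 and let-7a-5p. For called miRNAs with a group that was never above background no size of the difference is given, since a value at the common floor (-4.27) is only a bound. Their adjusted p rests on the floor too, and so may their direction.

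**Figure D1:**
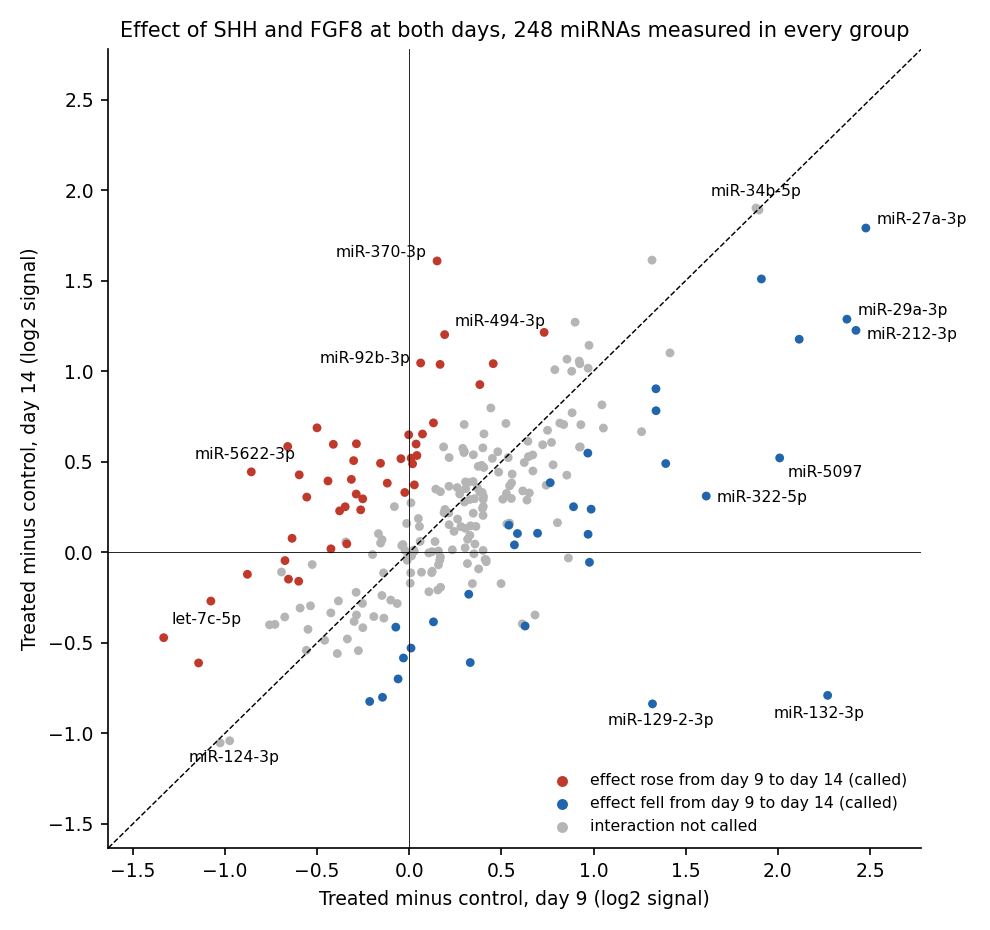
Treated minus control log2 signal at day 9 (horizontal) and day 14 (vertical) for the 248 miRNAs with an array above background in each of the 4 groups, each a point, with the dashed line of equal effects. miR-132-3p and miR-129-2-3p lie far below the line and on the other side of 0 at day 14, miR-370-3p and miR-494-3p lie above it, and miR-34b-5p and miR-124-3p lie near it.

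Under the scaling used, most of the downward differences were excesses that shrank. Treatment effects were called for 170 miRNAs at day 9 (55.6%), 124 of them higher in treated cells (40.5%), and for 163 at day 14 (53.3%), 119 of them higher (38.9%). That surplus of higher calls depended on scaling: with the all-probe percentile 41 were higher and 121 lower at day 9 (median -0.25 in place of 0.25) and 37 higher and 77 lower at day 14 (median -0.08 in place of 0.21). At day 9 quantile normalization gave 66 higher and 88 lower and median scaling 71 and 85, so which miRNAs stand above or below controls at a day is relative to the scaling. Of the 49, 16 miRNAs were called higher in treated cells at both days with less excess at day 14, and another 16 were higher at day 9 and not called at day 14. Then 9 went from not called to lower, 5 turned from higher to lower, and 3 were lower at both days and further below at day 14. Of the 51 upward differences, 22 went from not called to higher, 10 from lower to not called, and 9 turned from lower to higher. A further 5 were higher at both days with more excess, 3 lower at both days with less deficit, and 2 (miR-1892 and miR-1896, named after their values were seen) were called at neither day. Being called at 1 day and not at the other is not itself a difference between the days, and the count of 100 rests on the test of the difference.

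The same 100 were sorted by what each arm did from day 9 to day 14. In treated cells 202 of 306 miRNAs changed over these days (66.0%), and in controls 166 (54.2%). The changes in the arms, which share no arrays, correlated at 0.74 across the 306 miRNAs. Among the 49 downward differences, 23 fell in treated cells with no call in controls, 11 rose in both arms, 8 rose only in controls by this call, 5 fell in both, and 2 fell in treated cells and rose in controls. Among the 51 upward differences, 22 rose in both arms, 15 were called as rises in treated cells alone, 7 as falls in controls alone, 5 rose in treated cells and fell in controls, and 2 fell in both. The treated change was the larger in size for 68 of the 100 and the control change for 32.

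**Figure D2:**
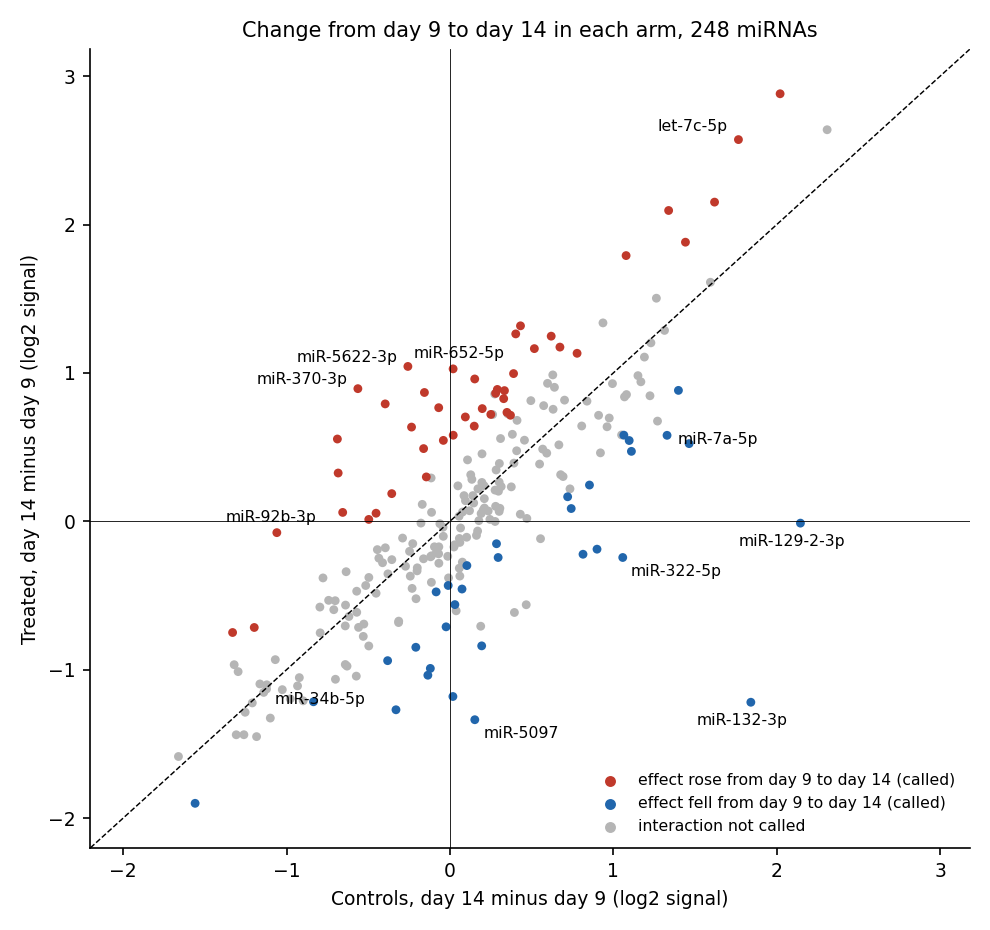
Change of log2 signal from day 9 to day 14 in controls (horizontal) and in treated cells (vertical) for the same 248 miRNAs. The distance from the dashed line is the difference of the treatment effects: let-7c-5p rose in both arms and more in treated cells, miR-129-2-3p moved in controls alone, and miR-132-3p moved in opposite directions.

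Of the reversals, the largest was that of miR-132-3p, which neuronal activity induces through CREB. Its scaled log2 signal in controls was -3.59, -4.04 and -4.13 at day 9 and -2.25, -1.97 and -2.03 at day 14. In treated cells it was -1.61, -1.70 and -1.65 at day 9 and -3.01, -2.81 and -2.80 at day 14. All treated arrays lay above all controls at day 9 and below all controls at day 14. Over all 306 miRNAs the treated and control arrays did not overlap for 71.2% at day 9 and 55.9% at day 14. The effect went from 2.27 to -0.79 (SE 0.12 at each day), a difference of -3.06 (SE 0.17, limma adjusted p = 4.5e-08). Treated cells fell by 1.22 (SE 0.12) while controls rose by 1.84 (SE 0.12).

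miR-212-3p is cut from a hairpin 203 bases from that of miR-132 on the same strand (GRCm38.p6, chr11:75173388-75173478 for miR-212 and chr11:75173682-75173747 for miR-132). The mature RNAs have 17 of 22 bases in common and differ by A10C, C14U, U17C, U20C and G22A, with the base of miR-132-3p first and positions counted from its 5′ end, so all 5 lie outside the seed. miR-212-3p was at -3.54, -3.33 and -3.22 in day 9 controls and at -3.60, -3.17 and -3.26 in day 14 controls. Treated arrays were at -0.93, -1.0 and -0.88 at day 9 and at -1.78, -1.73 and -2.85 at day 14. The groups did not overlap at either day, and the low treated array at day 14 was the one on slide 2. The effect went from 2.42 to 1.23 (SE 0.26), a difference of -1.20 (SE 0.37, limma adjusted p = 0.024), with no change in controls called (0.02, SE 0.26). With slide as a block the difference was -0.83 (adjusted p = 0.033) and the day 9 and day 14 effects were 1.33 and 0.50. The call was lost when treated day 9 replicate 3, control day 9 replicate 1, or control day 14 replicate 2 or 3 was left out (limma adjusted p from 0.0536 to 0.0606).

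miR-129-2-3p, a product of a brain-enriched miRNA gene (Mir129-2, chr2:94241364-94241453), was at -3.10, -3.09 and -3.10 in controls at day 9 and at -1.11, -0.75 and -0.99 at day 14. In treated cells it was at -1.85, -1.76 and -1.72 at day 9 and -1.83, -1.74 and -1.80 at day 14. The treated arrays stayed within a narrow band while the controls passed them. The effect went from 1.32 to -0.84 (SE 0.15), a difference of -2.16 (SE 0.21, limma adjusted p = 5.4e-06), and the controls rose by 2.14 (SE 0.15). miR-129-5p, which comes from this gene and from Mir129-1, was below background in both groups at day 9. At day 14 it was at -2.81, -2.39 and -2.66 in controls and at -4.23, -4.04 and -4.15 in treated cells, lower by 1.52 on the log2 scale (SE 0.09). The floor set its day 9 effect at 0. Its day difference (limma adjusted p = 2.0e-06) thus restates the day 14 effect and is given without a size. miR-129-1-3p was below background in treated day 9 cells alone. It was at -3.70, -3.52 and -3.67 in treated cells at day 14 against -2.08, -1.69 and -1.79 in controls. At day 9 it was at least 1.49-fold lower in treated cells. Its downward call (limma adjusted p = 3.6e-05) takes the floor as the treated day 9 level. As the day 9 deficit is a bound, the measured values do not fix the direction.

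In all, 14 of the 306 (4.58%) were called at both days with opposite signs, and each of these differences was itself called. Of the 5 that turned from higher to lower, the others were smaller. miR-338-3p, a miRNA of oligodendrocytes and neurons, went from 0.63 to -0.41 (difference -1.04, SE 0.14). miR-101c went from 0.33 to -0.61 (difference -0.94, SE 0.13), and miR-384-5p, with the seed of miR-30, from 0.32 to -0.23 (difference -0.55, SE 0.13). All 19 bases of miR-101c lie within miR-101a-3p, whose own difference was -0.36 (limma adjusted p = 0.080), so these probes may share signal.

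Of the 9 that turned from lower to higher, miR-5622-3p changed most. It was at 2.06, 1.97 and 1.85 in day 9 controls and 1.17, 1.04 and 1.1 in treated cells, then at 1.73, 1.71 and 1.67 in day 14 controls and 2.13, 2.16 and 2.16 in treated cells. The groups did not overlap at either day, and the order was reversed. The effect went from -0.86 to 0.44 (difference 1.30, SE 0.09, limma adjusted p = 4.3e-07). miR-1306-3p, whose hairpin is on chr16:18284239-18284317, went from -0.60 to 0.43 (difference 1.02, SE 0.09), miR-5105 from -0.66 to 0.58 (1.24, SE 0.17) and miR-5109 from -0.50 to 0.69 (1.19, SE 0.13). miR-652-5p went from -0.41 to 0.60 (1.01, SE 0.16), while its other arm, miR-652-3p, differed by 0.04 (adjusted p = 0.89). The differences of miR-5121, miR-211-3p, miR-3473b and miR-671-5p were 0.86, 0.83, 0.72 and 0.60 (SE 0.13 to 0.15).

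How many turned depended on slide and scaling more than the differences did. With slide as a block all 14 kept opposite signs, and 4 were still called at both days: miR-132-3p, miR-129-2-3p, miR-1306-3p and miR-5622-3p. With the all-probe percentile 10 of the 14 kept opposite signs and 2, miR-132-3p and miR-129-2-3p, were called at both days. Those 2 turned in all 27 alternatives run, but the size of the difference varied. It ran from -3.39 to -0.80 for miR-132-3p and from -2.40 to -1.16 for miR-129-2-3p.

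**Figure D3:**
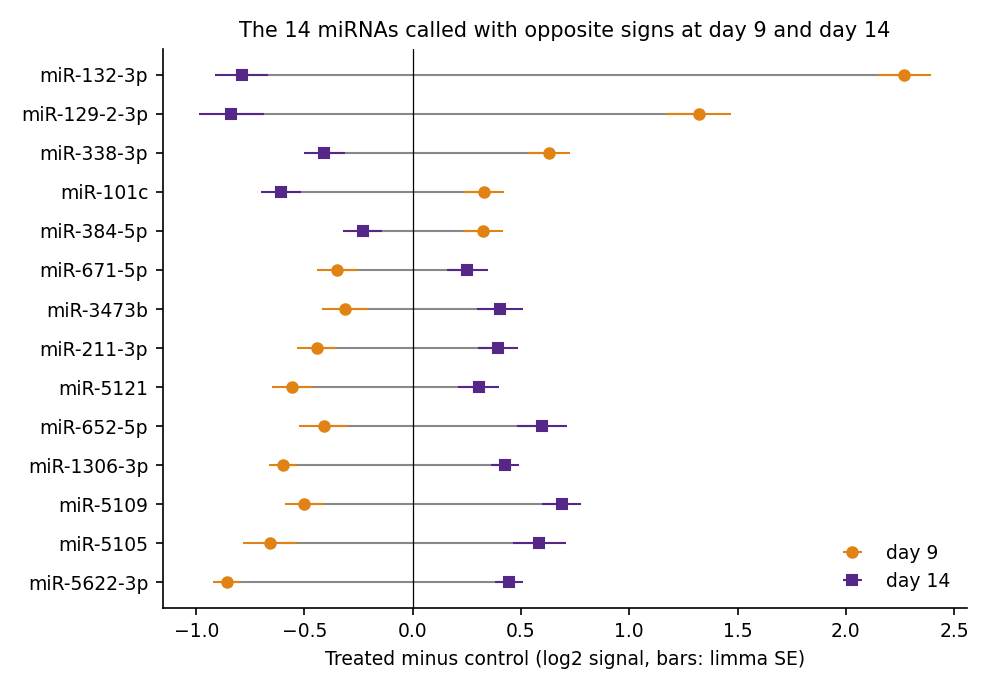
Treated minus control log2 signal at day 9 (circles) and day 14 (squares) for the 14 miRNAs called at both days with opposite signs, with limma's standard errors as bars. The top 5 turned from higher to lower, with miR-132-3p going from 2.27 to -0.79, and the other 9 from lower to higher.

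Excesses that shrank without turning included the miR-29 family, regulators of extracellular matrix and of neuronal survival. All 3 tested members were called downwards (16.0% over all miRNAs). Their median difference was -1.09, beside -0.07 over all miRNAs (-0.75 over the 2 with an array above background in each group). miR-29a-3p was at -4.03, -3.91 and -3.85 in day 9 controls, above background on 2 of these 3 arrays, and at -1.54, -1.57 and -1.56 in treated cells. At day 14 controls were at -3.23, -2.89 and -2.97 and treated cells at -1.62, -1.74 and -1.87. The groups did not overlap at either day. The excess went from 2.37 to 1.29 (SE 0.09), a difference of -1.09 (SE 0.13, limma adjusted p = 3.4e-05), as controls rose by 0.90 and the treated change of -0.19 was not called (adjusted p = 0.085). Over the alternatives the difference ran from -1.65 to -0.19.

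miR-29c-3p, which differs from miR-29a-3p by C10U alone, took another course: controls stayed between -3.27 and -3.05 at both days, and treated cells fell from between -2.21 and -2.16 to between -2.67 and -2.58. Its excess went from 0.97 to 0.55, a difference of -0.42 (SE 0.11, limma adjusted p = 0.0095). That call was lost with the all-probe percentile (-0.20, adjusted p = 0.42) and median scaling (-0.34, 0.095). miR-29b-3p was below background in controls at both days and at -1.99, -2.0 and -1.93 in treated cells at day 9 and -3.54, -3.76 and -4.18 at day 14. It was at least 4.63-fold higher at day 9 and at least 1.31-fold at day 14, and the day difference had a limma adjusted p of 2.4e-06. That test takes the floor as the control level. As both folds are bounds, they do not fix which day had the larger excess. The hairpins lie in 2 pairs, Mir29a with Mir29b-1 on chromosome 6 and Mir29b-2 with Mir29c on chromosome 1.

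The miR-23a, miR-27a and miR-24-2 hairpins lie together on chr8:84208518-84208921, and miR-24-3p is also made from Mir24-1 on chromosome 13. All 3 products kept a large excess at both days that was smaller at day 14. miR-27a-3p, an inhibitor of adipocyte differentiation, went from 2.48 to 1.79 (difference -0.69, SE 0.11, controls above background on 2 of 3 arrays at each day). miR-24-3p went from 1.34 to 0.90 (-0.44, SE 0.11) and miR-23a-3p from 1.91 to 1.51 (-0.40, SE 0.10; limma adjusted p = 0.0073 for both). The b forms did not pass, with -0.23 for miR-27b-3p and 0.26 for miR-23b-3p (adjusted p = 0.26 and 0.19). With the all-probe percentile 0 of these 5 were called, and their median was -0.18 in place of -0.40.

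miR-322-5p, a member of the miR-15 and miR-16 seed family that slows the cell cycle, was at -3.74, -3.56 and -3.76 in day 9 controls and -2.18, -1.98 and -2.07 in treated cells. At day 14 it was at -2.65, -2.57 and -2.67 in controls and -2.28, -2.26 and -2.42 in treated cells. The groups did not overlap at either day, and the gap narrowed from 1.61 to 0.31, a difference of -1.30 (SE 0.14, limma adjusted p = 1.1e-05). Of the 4 tested miRNAs with its seed among those matched to RefSeq it was the only one called. The others were miR-15a-5p, miR-15b-5p and miR-16-5p, and tested miRNAs without a RefSeq sequence were not compared. With slide as a block its day 14 excess was 0.21 (limma adjusted p = 0.26) and the difference -1.25. Over the alternatives the difference ran from -1.36 to -0.19.

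miR-674-3p and miR-335-5p also lost excess. miR-674-3p went from 2.12 to 1.18 (difference -0.94, SE 0.16), and its other arm was called in the same direction. miR-335-5p, whose hairpin lies within the imprinted gene Mest, went from 0.97 to 0.10 (difference -0.87, SE 0.21), with treated day 14 arrays at -0.43, -0.28 and -0.97, the last on slide 2. Its other arm, miR-335-3p, was at -3.01, -2.98 and -2.87 in treated cells at day 9 and not above background in controls, at least 2.35-fold higher. At day 14 it was above background on 1 treated array, and no fold is given, so its call rests on the floor. Of 35 hairpins with both arms tested these 2 had both called, in the same direction, and 10 had a single arm called.

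Among the brighter miRNAs, miR-5097, miR-5100 and miR-3968 lost excess. miR-5097 was at 0.99, 0.86 and 0.73 in day 9 controls and 2.82, 2.73 and 3.06 in treated cells, then at 0.60, 1.4 and 1.04 in day 14 controls and 1.71, 1.61 and 1.27 in treated cells. The groups were apart at day 9 and overlapped at day 14. The difference was -1.49 (SE 0.33, limma adjusted p = 0.0038). miR-5100 went from 0.98 to -0.06 (difference -1.03, SE 0.32) and miR-3968 from 1.39 to 0.49 (-0.90, SE 0.27).

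The sequences of these last 2 are shown because they overlap with a shift of 1 base:
miR-5100: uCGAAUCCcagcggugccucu
miR-3968: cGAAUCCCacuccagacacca

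They share the run CGAAUCCCA, and miR-3968 ends in CCA, as mature transfer RNAs do. Whether other small RNAs added to their signal was not tested. The call of miR-5100 was lost without treated day 9 replicate 3, control day 9 replicate 3, or control day 14 replicate 2 or 3 (limma adjusted p from 0.0513 to 0.0596). That of miR-3968 was lost without treated day 9 replicate 3, control day 9 replicate 2 or control day 14 replicate 2 (0.0517 to 0.057).

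Effects that appeared by day 14 were led by miR-370-3p and miR-494-3p, from the maternally expressed imprinted Dlk1-Dio3 region of chromosome 12, where their hairpins lie 96981 bases apart. miR-370-3p was at -2.23, -1.86 and -2.0 in day 9 controls and -1.71, -2.0 and -1.93 in treated cells, and the groups overlapped. At day 14 it was at -2.27, -2.87 and -2.62 in controls and -0.94, -0.80 and -1.21 in treated cells, with no overlap. Treated cells rose by 0.89 (SE 0.15) while controls fell by 0.56 (SE 0.15), and the difference was 1.46 (SE 0.21, limma adjusted p = 0.00016).

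miR-494-3p was far brighter and moved likewise. It was at 1.49, 1.57 and 1.4 in day 9 controls and 1.69, 1.69 and 1.64 in treated cells, then at 0.85, 0.78 and 0.78 in day 14 controls and 2.12, 1.98 and 1.91 in treated cells. The groups did not overlap at either day, but the day 9 effect of 0.19 was not called (adjusted p = 0.11), and the difference was 1.01 (SE 0.14, limma adjusted p = 0.00012). The other 4 tested members of the region (miR-487b-3p, miR-770-3p, miR-376a-3p and miR-3072-5p) were not called, and the list's median was 0.09 (1.01 over the 3 with an array above background in each group). The array covers 98 miRNAs of the region, and 9 of them were above background on any of the 12 arrays.

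The neural progenitor list held 15 tested miRNAs, with 6 upward differences (16.7% over all miRNAs), 1 downward (miR-135b-5p, -0.54, SE 0.16) and a median of 0.26 (0.19 over the 14 with an array above background in each group). With normexp 0 moved upwards and 1 downwards (median 0.13), and with the higher floor 4 upwards and 1 downwards (median 0). miR-92b-3p, found in cortical progenitors, was between -2.48 and -2.21 in all 6 day 9 arrays. At day 14 controls were at -3.52, -3.38 and -3.44 and treated cells at -2.35, -2.35 and -2.49. Treated cells thus kept their day 9 level (change -0.08, SE 0.16) where controls fell by 1.06 (SE 0.16), and the difference was 0.98 (SE 0.22, limma adjusted p = 0.0049). With a floor 4 times higher the difference was -0.011, since most of these values then lie at the floor.

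miR-363-3p has the same seed as miR-92b-3p. It fell in both arms, to the floor in treated cells (1 of 3 arrays above background at day 14), with a day difference of -0.34 (SE 0.11, limma adjusted p = 0.024). That call was lost without treated day 9 replicate 3 or control day 14 replicate 2 or 3 (adjusted p from 0.0505 to 0.066). The difference was 0.065 with the all-probe percentile, 0.022 with median scaling and 0.043 with the higher floor.

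miR-135a-1-3p went from 0.17 to 1.04 (difference 0.87, SE 0.17, limma adjusted p = 0.0018). miR-135a-2-3p, made from the other copy of the gene and sharing only 7 bases in a row with it, was below background in day 9 controls and higher by 1.17 at day 14 (SE 0.12). Among the miR-99 and miR-100 seed family, regulators of the mTOR pathway, miR-99b-5p was at -1.83, -1.71 and -1.81 in day 14 controls and -1.32, -1.29 and -1.20 in treated cells. It gained 0.56 (SE 0.15, limma adjusted p = 0.0095), miR-99a-5p gained 0.35 (SE 0.08), and miR-100-5p fell just short (0.26, adjusted p = 0.053). miR-181b-5p gained 0.51 (SE 0.10) as its deficit went from -0.66 to -0.15.

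miR-1940 went from -0.29 to 0.60 (difference 0.89, SE 0.23, limma adjusted p = 0.0088). It rose in both arms, by 1.32 in treated cells and by 0.43 in controls.

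The let-7 family, which restrains growth and pluripotency genes and rises with differentiation, lost part of its deficit. Of 10 tested members 5 moved upwards (16.7% over all miRNAs) and 0 downwards (16.0%). The median was 0.42 (0.44 over the 9 with an array above background in each group). let-7c-5p was at 0.47, 0.18 and 0.24 in day 9 controls and -0.80, -0.72 and -0.82 in treated cells. At day 14 controls were at 1.93, 2.10 and 2.16 and treated cells at 1.63, 1.86 and 1.90. Both arms rose, by 1.77 in controls and by 2.57 in treated cells (SE 0.11). The treated arrays lay below all controls at both days, with a far narrower gap at day 14. The difference was 0.81 (SE 0.15, limma adjusted p = 0.0014).

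let-7a-5p and let-7e-5p gained 0.76 (SE 0.21) and 0.71 (SE 0.19), and their day 14 effects of -0.12 and 0.08 were not called. let-7i-5p gained 0.53 (SE 0.13) and let-7f-5p 0.44 (SE 0.14). let-7g-5p, with the same seed, had effects of -0.56 at day 9 and -0.54 at day 14, and these differed by 0.02 (SE 0.11, limma adjusted p = 0.93). let-7a-5p and let-7c-5p differ by A19G, and arrays may not tell such members fully apart, so they are not independent counts. The family's direction depended on the background and the floor: the median was 0.01 with normexp background correction and 0.02 with a floor 4 times higher, where 3 members moved upwards and 3 downwards. let-7i-5p was then at -0.54 with the higher floor and -0.066 with normexp.

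In the neuronal list 10 of 21 tested miRNAs moved downwards (16.0% over all miRNAs) and 2 upwards (16.7%), with a median of -0.35. Over the 12 with an array above background in each group, 5 moved downwards and 1 upwards, and the median was -0.19. Over all 248 such miRNAs 32 moved downwards and 44 upwards, with a median of -0.05. Besides the miR-129 products and miR-132 and miR-212, miR-7a-5p, a repressor of alpha-synuclein, lost excess from 0.99 to 0.24 (difference -0.75, SE 0.18, limma adjusted p = 0.0056). It rose in both arms, by 1.33 in controls and 0.58 in treated cells. miR-138-5p, which acts at dendritic spines, was below background at day 9 in both groups. At day 14 it was at -2.99, -2.56 and -2.83 in controls and -3.78, -3.59 and -3.83 in treated cells. The floor set its day 9 effect at 0, so its downward call (limma adjusted p = 0.00014) restates the day 14 effect. That call was lost in the deposited value table and with normexp, and with outlier spots kept the difference was 0.068. miR-128-3p, named after its values were seen like the next 4, fell further below controls, from -0.21 to -0.82 (difference -0.61, SE 0.12). miR-326-3p, below background at day 9 in both groups, and miR-598-3p, below background in treated day 9 cells, made up the rest of the 10. The calls of both rest on the floor. The 2 that moved upwards were miR-137-3p and miR-124-5p. miR-137-3p went from -1.33 to -0.47 with treated cells above background on 1 array at day 9, and miR-124-5p was below background in treated day 9 cells.

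The abundant neural miRNAs miR-9-5p, miR-9-3p and miR-124-3p had effects whose difference between the days did not pass the test. miR-124-3p was at 2.30, 2.34 and 2.26 in day 9 controls and 1.31, 1.34 and 1.34 in treated cells, then at 3.19, 3.40 and 3.30 in day 14 controls and 2.17, 2.27 and 2.33 in treated cells. The effects were -0.97 and -1.04, and the difference of -0.07 (SE 0.10, limma adjusted p = 0.67) did not pass. It was 0.23 and called with quantile normalization. miR-9-3p had effects of -1.03 and -1.05 (difference -0.03, SE 0.18). miR-9-5p gained 0.36 (SE 0.15, adjusted p = 0.086), and this passed under the slide block (0.44, adjusted p = 0.042), quantile normalization (0.57, 0.006) and the all-probe percentile (0.58, 0.019), with any spot above background (0.39, 0.029) and with the replicate block (0.36, 0.048). miR-218-5p, a miRNA of motor and dopaminergic neurons, was higher in treated cells by 0.90 and 1.27 (difference 0.37, SE 0.15, limma adjusted p = 0.073). Its difference passed with the all-probe percentile (0.59, adjusted p = 0.0099), quantile normalization (0.57, 0.017), the 12 arrays alone (0.37, 0.017) and outlier spots kept (0.43, 0.047).

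miR-34b-5p and miR-34c-5p, p53 targets cut from hairpins 451 bases apart, kept their excess. miR-34b-5p was between -2.70 and -2.45 in day 9 controls and between -0.74 and -0.64 in treated cells, and both arms fell by about the same amount, by 1.12 in controls and 1.1 in treated cells. The differences were 0.02 (SE 0.17) and -0.01 (SE 0.15), and limma's adjusted p of 0.95 or 0.97 is no evidence that the days were alike. Raising the floor 4 times put miR-34b-5p at -1.1. Of the miR-302 and miR-290 clusters of pluripotent cells 0 of 7 were called, with a median of -0.15 (-0.31 over the 3 with an array above background in each group). miR-302b-3p was below background on all 12 arrays and was tested only through the day 5 arrays, so the floor fixed its difference at 0. The difference of miR-302d-3p was -0.31 (SE 0.23, limma adjusted p = 0.33). miR-294-3p, which was above background on at most 1 array of any day 9 or day 14 group, had a limma adjusted p of 0.78.

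**Figure D4:**
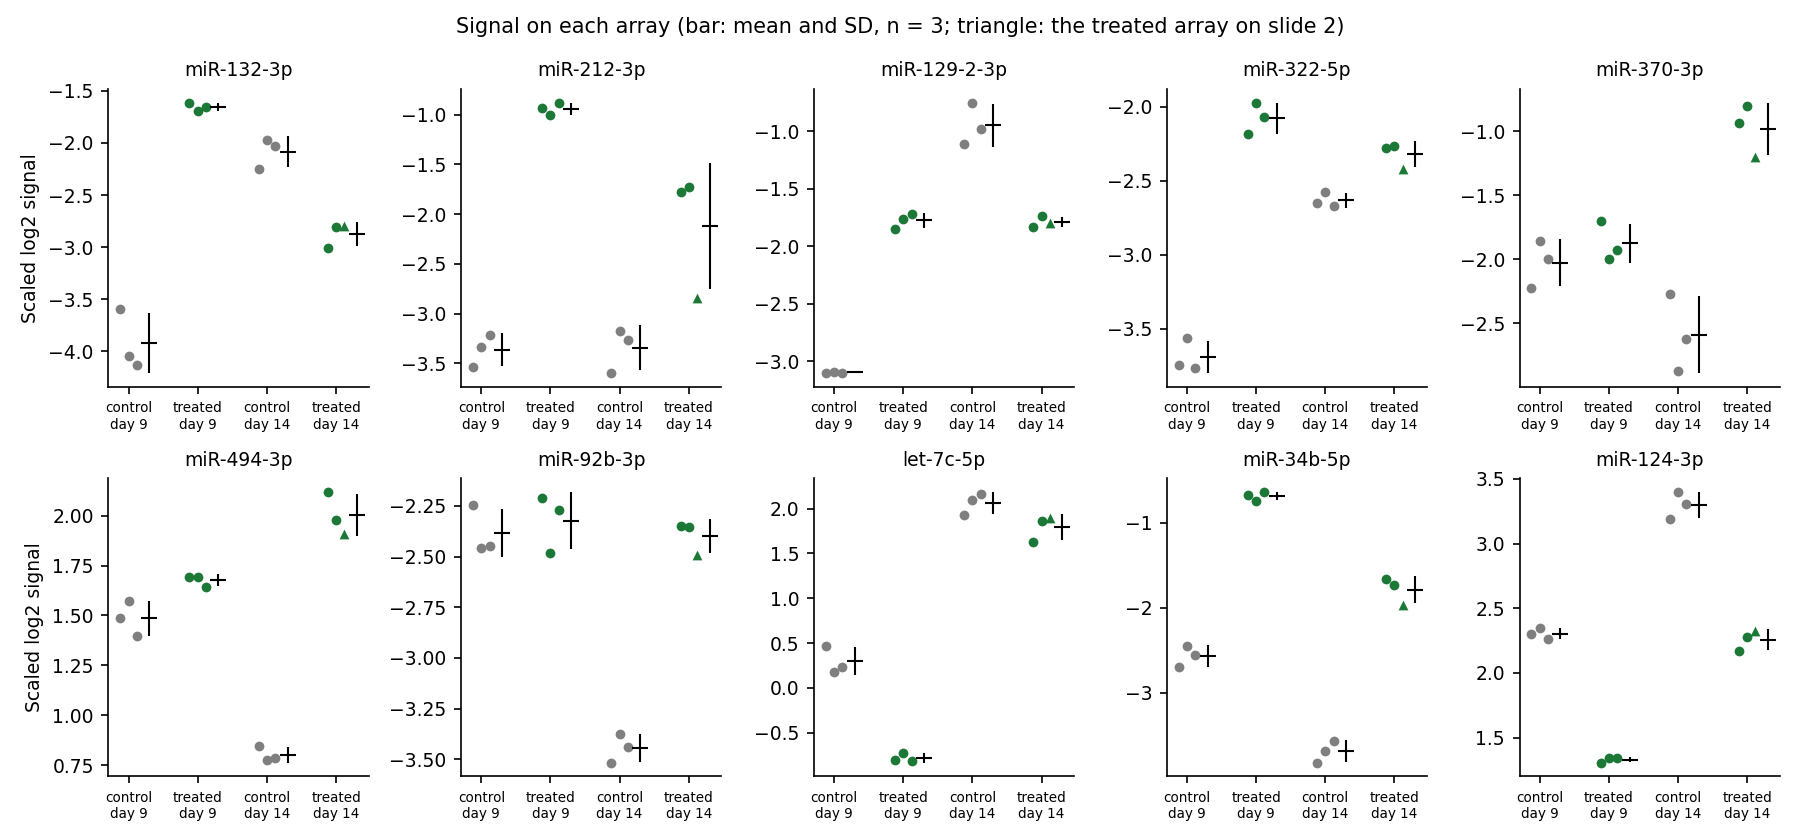
Scaled log2 signal on each of the 12 arrays for 10 miRNAs, with each group's mean and SD (n = 3) as a bar and the treated array on slide 2 as a triangle. miR-132-3p and miR-129-2-3p change order between the days, miR-322-5p and let-7c-5p come closer, miR-370-3p, miR-494-3p and miR-92b-3p come apart, and miR-34b-5p and miR-124-3p keep their distance.

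The remaining lists moved little. Of miR-17-92 and its paralogs, which drive proliferation, 2 of 17 moved downwards (miR-363-3p and miR-20a-3p, median -0.02). The median was -0.03 over the 13 with an array above background in each group. miR-20a-3p was above background in treated day 9 cells and on 1 day 9 control array, and below it at day 14. Its call was lost in each fit that left out an array and with slide as a block (limma adjusted p = 0.0758), and the difference was 0.14 with the all-probe percentile. Of the miR-130, miR-301, miR-148 and miR-152 group 1 of 8 was called, miR-301b-3p at -0.38 (SE 0.13, limma adjusted p = 0.035), and its call was lost without any of 8 arrays (the highest adjusted p was 0.0936) and under the slide block (-0.34, adjusted p = 0.079). The Sfmbt2 cluster is a large imprinted group of miRNAs in an intron. Of its miRNAs 1 of 31 moved upwards and 1 downwards, with a median of -0.08. miR-466b-3p went from 0.73 to 1.21 with controls above background on 1 of 3 arrays at day 14, and was at -0.11 with normexp. miR-297c-5p was below background in controls at both days and at least 1.38-fold and 1.06-fold higher in treated cells, and its difference was 0.024 when any spot above background sufficed.

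Among markers of other cells, both tested glial miRNAs moved downwards (16.0% over all miRNAs). miR-338-3p turned, as given above, and miR-219-5p, the miRNA of oligodendrocyte maturation, was at 2.29, 2.20 and 2.29 in treated cells at day 9 and 1.5, 1.36 and 1.11 at day 14. Its excess went from 1.34 to 0.78 (difference -0.56, SE 0.15, limma adjusted p = 0.012). That call was lost with the all-probe percentile (-0.34, adjusted p = 0.12), median scaling (-0.48, 0.052) and no filter (0.067), and the call of miR-338-3p was lost with normexp. The summed linear signal of the 7 glial miRNAs was 4.78 to 5.02 in treated day 9 arrays and 2.25 to 2.94 at day 14, beside 1.73 to 2.11 and 1.56 to 1.62 in controls. Nearly all of this sum was miR-219-5p. On the day 5 arrays it was 2.95 to 3.58, above the controls of either day. The other 5 glial miRNAs gave little: miR-338-5p was above background on 1 of the 12 arrays and both arms of miR-146a and the 3p arms of miR-219 on none. The 2 tested miRNAs of mesenchyme and smooth muscle were not called (median -0.25). The sum of the list was 1.51 to 1.85 in treated cells at day 9 and 1.03 to 1.17 at day 14, beside 0.689 to 0.758 and 0.552 to 0.609, with miR-214, miR-145 and miR-143 above background on 0 arrays in either arm. Of the 17 endoderm and endocrine miRNAs on the array, 15 were below background on all 12 arrays. The endocrine miRNA miR-375-3p was below background in controls at both days, and treated cells were at -0.48, -0.49 and -0.62 at day 9 and -1.19, -1.13 and -1.4 at day 14. It was at least 12.6-fold and then 7.9-fold higher, and the difference was called (limma adjusted p = 0.00014) without a size. These bounds do not fix which day had the larger excess. miR-216a-5p was above background in day 9 controls alone, and its call was lost without treated day 9 replicate 3, control day 9 replicate 2 or control day 14 replicate 3 (adjusted p from 0.0501 to 0.0608). The part of such cells in the differences above was not tested.

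miR-676-3p, named for its size among miRNAs often below background, was at -2.28, -2.29 and -2.28 in treated cells at day 9 and -3.10, -3.20 and -3.17 at day 14. Controls were below background at both days, so it was at least 3.74-fold and then 2.09-fold higher (day difference, limma adjusted p = 0.00011). Since both folds are bounds, which day had the larger excess is not fixed.

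**Figure D5:**
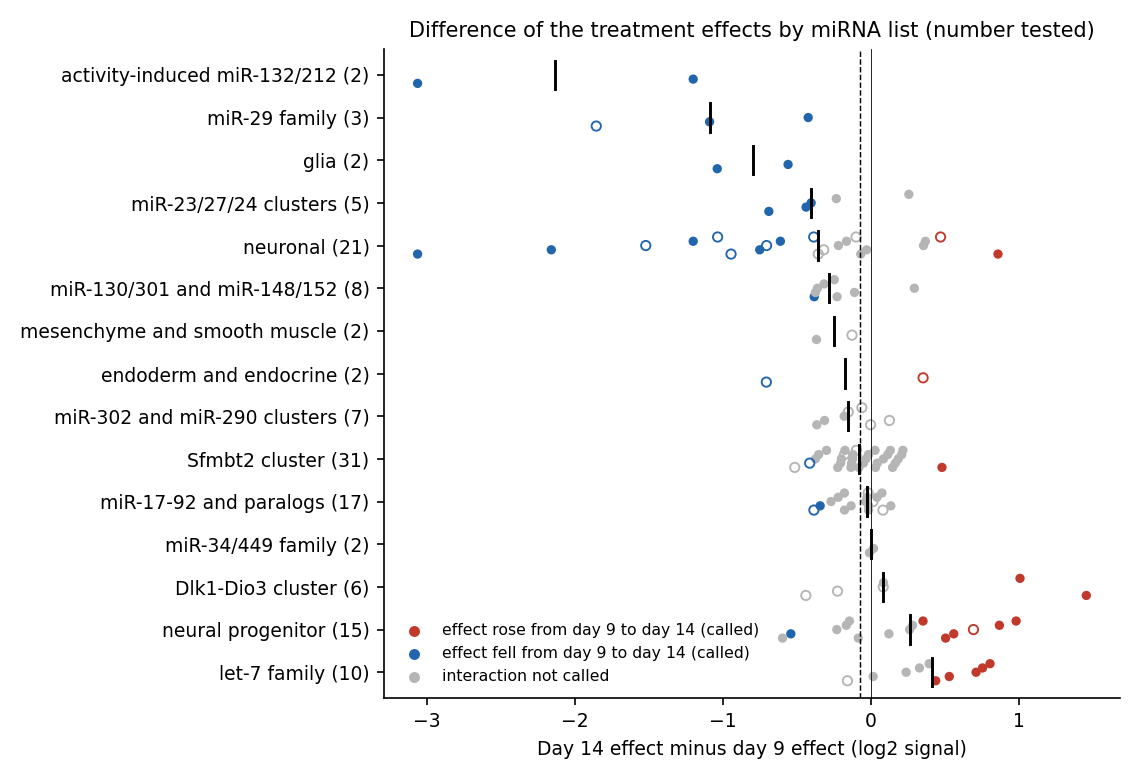
Difference of the treatment effects (day 14 minus day 9, log2 signal) for each tested miRNA of each list, with list medians as black bars and the median of all 306 miRNAs (-0.07) as the dashed line. Open circles had a group that was never above background, so their position depends on the floor. The miR-132 and miR-212 pair and the miR-29 family lie lowest, and let-7 and neural progenitor miRNAs highest.

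Called miRNAs were also compared by seed and by position. Seeds were compared only for the 227 of the 306 tested miRNAs matched to a RefSeq sequence, which leaves out miR-301b-3p among others. Of 21 seeds with at least 2 such miRNAs, 5 had at least 2 called. In 4 of these the called members moved in the same direction: let-7 (5 of 9 with the seed GAGGUAG, upwards), miR-29 (3 of 3), miR-132 and miR-212 (2 of 2) and miR-99 (2 of 3, upwards). Among these 5 the exception was the seed AUUGCAC, with miR-92b-3p upwards and miR-363-3p and miR-32-5p downwards. Of 23 groups of hairpins with gaps of at most 10 kb, 8 had at least 2 called miRNAs, and in all 8 these moved in the same direction. Over all 306 tested miRNAs 32.7% were called. miR-29b-3p is counted in both miR-29 groups, so the 8 are not all separate cases. They were Mir29b-2 with Mir29c, Mir212 with Mir132, Mirlet7d with Mirlet7f-1 and Mirlet7a-1, Mir99a with Mirlet7c-1, Mir29a with Mir29b-1, Mir23a with Mir27a and Mir24-2, the group from Mir500 to Mir532 and that from Mir450 to Mir322. Members of a family can share probe signal and members of a group share a transcript or product, so these counts are a description.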

How the data were processed

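Single-colour Agilent mouse miRNA arrays were used, 15 in all and 3 in each of 5 groups. The scanner tables the authors deposited hold spot signals as Cy3 intensity, background-subtracted by Feature Extraction per the file headers, with no normalization between arrays. The deposited flags (other) are 0 or 1 for spots above background, saturated or outlying, per the file headers. The deposited value table also holds linear intensity: its columns equal the mean of each probe's spots within 0.1% for 73.3% to 83.8% of probes in 14 columns. The medians of its day 5 columns were 0.1, 0.218 and 0.0452. Those of treated cells were 0.44, 0.542 and 0.381 at day 9 and 0.7, 0.7 and 0.257 at day 14. In controls they were -0.0215, 0.103 and 0.217 at day 9 and 0.235, 0.267 and 0.436 at day 14. For treated day 14, replicates 1 and 2 hold the same column (86% of probes within 0.1%), and the table, used as an alternative alone, counts them as 1 replicate. The submitters' processing notes name limma 3.20.9 with no role.

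Non-outlier spots were averaged per probe, scaled so that the 75th percentile of the 353 probes detected on each of the 15 arrays was the same, and raised to 1 floor (-4.27, log2) before the log2 was taken. A probe counted as above background where 50% or more of its spots had the flag. The brightest probe stood for a miRNA. Where a group was never above background, "at least" folds were set against the lowest signal that counted as above background there, or the floor if higher.

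A single limma fit (version 3.58.1, in R 4.3.3 with jsonlite 2.0.0 and version 1.17.8 of the data.table package) held all 5 groups, with 10 residual and 3.06 prior degrees of freedom. The day 5 arrays enter only through the shared spread. P-values are two-sided, adjusted by Benjamini-Hochberg over the 306 tested miRNAs, and called below 0.05. SE is limma's standard error. Plots were made in Python 3.11.15 with numpy 2.4.6, pandas 2.3.3 and matplotlib 3.10.9. On simulated data for the 306 miRNAs, 62.5% of differences of 0.5, 94.7% of 1 and 99.8% of 2 (log2) were recovered, and 3.14% of calls were unchanged miRNAs. The number of arrays limits the precision.

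Alternatives were other scalings (all mouse probes, quantile, median), normexp background, a higher floor, other filters, outlier spots kept, any spot above background, the mean of probes, the 12 arrays alone, slide and replicate blocks, the value table and each array left out. The software's total gene signal was added after seeing the data. normexp was run on median spot signals.

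Members, lists and rules were chosen with earlier results of these data known. Named miRNAs are the 12 largest called increases and 12 largest decreases above background on at least 2 of 3 arrays in each group, all that turned, up to 4 called members of each list, 16 chosen whatever their values, and the 6 largest called with a group less often above background. Other called miRNAs given by name, such as miR-135b-5p, miR-99a-5p, miR-181b-5p, let-7f-5p and miR-32-5p, were chosen after their values were seen.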

Additional observations from a re-analysis of the deposited data

Results flagged for a closer look

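Each value here is the difference between the treatment effects at day 14 and day 9 of a named miRNA, tested as limma's interaction of treatment and day with 3 arrays in each of 4 groups. Of the 60 named miRNAs 52 passed, and no explanation of any was tested. Differences are on the log2 scale, and negative values mean a lower effect at day 14.

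The downward differences over 0.5 were -3.06 for miR-132-3p, -2.16 for miR-129-2-3p, -1.49 for miR-5097, -1.30 for miR-322-5p, -1.20 for miR-212-3p, -1.09 for miR-29a-3p, -1.04 for miR-338-3p and -1.03 for miR-5100. Next came -0.94 for both miR-101c and miR-674-3p, -0.90 for miR-3968, -0.87 for miR-335-5p, -0.75 for miR-7a-5p, -0.69 for miR-27a-3p, -0.56 for miR-219-5p and -0.55 for miR-384-5p. The smaller ones were -0.44 for miR-24-3p, -0.42 for miR-29c-3p, -0.40 for miR-23a-3p, -0.38 for miR-301b-3p and -0.34 for miR-363-3p.

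The upward differences were 1.46 for miR-370-3p, 1.30 for miR-5622-3p, 1.24 for miR-5105, 1.19 for miR-5109, 1.02 for miR-1306-3p, and 1.01 for both miR-494-3p and miR-652-5p. They were 0.98 for miR-92b-3p, 0.89 for miR-1940, 0.87 for miR-135a-1-3p, 0.86 for miR-5121, 0.83 for miR-211-3p, 0.72 for miR-3473b, 0.60 for miR-671-5p, 0.56 for miR-99b-5p and 0.48 for miR-466b-3p. In the let-7 family they were 0.81 for let-7c-5p, 0.76 for let-7a-5p, 0.71 for let-7e-5p and 0.53 for let-7i-5p.

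For 11 more a group was never above background, and limma's adjusted p is given without a size. Their directions are those of values held at the floor, and the measured signals alone do not fix them. The effect moved downwards for miR-129-5p (adjusted p = 2.0e-06), miR-335-3p (2.1e-06), miR-29b-3p (2.4e-06), miR-129-1-3p (3.6e-05), miR-676-3p (0.00011), miR-375-3p and miR-138-5p (0.00014 each), miR-297c-5p (0.0073) and miR-20a-3p (0.045). It moved upwards for miR-135a-2-3p (0.0056) and miR-216a-5p (0.024).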

How the results depend on the processing

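Of 52 named miRNAs that were called, 19 were called under each alternative that gave a value, 50 with slide as a block and 45 in each fit that left out an array. The largest losses came with normexp background, where 37 differences were called in all (17 upwards, 20 downwards) and 24 named calls were lost; the cause was not tested. The count of downward differences was 25 with the all-probe percentile and 29 when miRNAs had to be above background on all 12 arrays, where fewer were tested. Upward differences were 32 with a floor 4 times higher, and 32 with no filter on low signal. Turned miRNAs were 6 with the all-probe percentile and 5 with slide as a block. For the day 9 effects, 98 were called with the higher floor, 83 with normexp and 75 with slide as a block. For day 14 these counts were 97, 70 and 107. Treated changes were 134 and 133 and control changes 97 and 96 with the higher floor and normexp. Leaving out each array in turn gave 81 to 110 differences, 42 to 55 upwards, 38 to 55 downwards and 11 to 16 turned, with 149 to 174 day 9 effects, 145 to 165 day 14 effects, 189 to 207 treated changes and 150 to 167 control changes.

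Signs reversed for let-7i-5p (-0.54 with the higher floor, -0.066 with normexp), miR-124-3p (0.23, quantile), miR-138-5p (0.068, outlier spots kept), miR-20a-3p (0.14, all-probe percentile) and miR-297c-5p (0.024, any spot above background). They also did for miR-34b-5p (-1.10) and miR-92b-3p (-0.011) with the higher floor, miR-466b-3p (-0.11, normexp) and miR-363-3p (0.065 with the all-probe percentile, 0.043 with the higher floor, 0.022 with median scaling).

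With the replicate number as a block 97 differences were called, 94 of them among the 100. The numbers share only a name: 5 of 18 pairs of same-numbered arrays had deviations that correlated over 0.1 (range -0.543 to 0.379), and 3 of 12 arrays correlated best with their own number. Signal near background limits the smaller differences of dim miRNAs.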
